A study of Mus musculus with 6 samples.

Results

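Ngfr, the gene of the p75 neurotrophin receptor, was described together with the neurotrophins Bdnf, Ntf3 and Ntf5, the Trk receptors Ntrk2 and Ntrk3, and the coreceptor Sort1. These 7 genes were taken by symbol from a table of 21959 genes. They were picked with the counts of these same 6 libraries known, so every difference given for them between the groups is a description and carries no test. Reads were counted on 5 of the 7 genes, and 3 of them (Ngfr, Bdnf and Sort1) had enough counts to enter the model fitted across all genes.

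The libraries were made from a wild-type mouse cell line labelled HL-1, a line derived from atrial cardiomyocytes. The 3 phillyrin libraries came from cells given phillyrin, a plant lignan from Forsythia, at 50 µg/mL for 8 h before and 16 h during oxygen-glucose deprivation and reoxygenation (OGD/R); where those 16 h fall within the procedure is not stated. The 3 OGD/R libraries came from cells that had the OGD/R procedure without phillyrin, that is, 4 h hypoxic without glucose, then 24 h reoxygenated. Both groups carry the injury and the same batch label, and no uninjured or solvent-treated sample was analysed here, so phillyrin and its solvent cannot be told apart.

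Neurotrophins are secreted growth factors best known for keeping neurons alive and for guiding the innervation of target tissues, the heart among them. Each mature neurotrophin binds p75, while the Trk receptor tyrosine kinases are selective: Ntrk2 binds the products of Bdnf and Ntf5, and Ntrk3 binds the product of Ntf3. Unprocessed proneurotrophins bind p75 together with sortilin, the product of Sort1, or with its relative Sorcs2.

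The libraries held between 14761317 and 22123648 counts. Of the 11658 genes tested, 3694 passed edgeR's quasi-likelihood test at an adjusted p of 0.05, which is 31.7%, with 16.0% higher and 15.6% lower in the phillyrin libraries. The groups did not overlap in 43.1% of the tested genes, and the median log2 fold change over all of them was -0.01. Part of the data went against the atrial label. Of 12 atrial markers, Myh6, Actn2, Mybphl and Sln had 0 counts in all 6 libraries. Nppa, Myl7 and Actc1 had at most 2 counts each over all libraries, and Ryr2 had 18. However, 4 had enough counts to be tested: Tnnt2, Gata4, Nkx2-5 and Myl4. All 9 markers on the list for skeletal myoblasts had counts, and 7 were tested. Whether a group's libraries are separate cultures is not labelled, so p-values below reflect the spread between libraries alone, which may be technical.

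The RefSeq promoters of Ngfr and of a Bdnf start are shown because these are the members whose ranges did not overlap among those tested, and the Bdnf start is the only 1 of 7 with the cAMP response element core. RefSeq promoters were found for 4 of the 7 members. Each line gives the 250 bases before the start, 5′ to 3′ on the gene's strand, with coordinates of build GRCm38.p6: chr11:95587699-95587948 on the minus strand for Ngfr, and chr2:109692186-109692435 on the plus strand for the third of 7 listed Bdnf starts. Capitals mark E-boxes (CANNTG), GC boxes (GGGCGG) and the core of the cAMP response element (TGACG), each searched on both strands.
Ngfr: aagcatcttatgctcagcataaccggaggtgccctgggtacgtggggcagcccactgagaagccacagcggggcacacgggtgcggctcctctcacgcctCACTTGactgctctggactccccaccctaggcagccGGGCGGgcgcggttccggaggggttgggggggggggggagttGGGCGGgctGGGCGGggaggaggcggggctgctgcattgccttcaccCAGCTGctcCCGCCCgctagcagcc
Bdnf, start 3: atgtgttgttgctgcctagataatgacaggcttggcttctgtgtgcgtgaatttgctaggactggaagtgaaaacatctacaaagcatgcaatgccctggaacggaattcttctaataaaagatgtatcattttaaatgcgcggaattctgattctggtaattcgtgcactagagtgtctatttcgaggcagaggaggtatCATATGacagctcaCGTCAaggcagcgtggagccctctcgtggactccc

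The Ngfr promoter had a GC content of 70.4%, against a median of 52.4% over 32851 mouse promoters. It held 4 GC boxes, whose first bases lay 114, 72, 63 and 16 bases before the start, and 4.09% of all promoters held 4 or more. Its 2 E-boxes began 150 and 25 bases before the start, and E-boxes were found in 66.2% of all promoters. The AP-1 motif (TGANTCA, in 6.75% of promoters), the full cAMP response element (TGACGTCA, 1.55%, which contains the core), the EGR motif (GCGNGGGCG, 4.70%) and the TATA motif (TATAAA, 12.4%) had no match in this window. The Bdnf start shown had an E-box 49 bases and the cAMP response element core 35 bases before it, a core present in 17.8% of promoters. The second Bdnf start held an AP-1 match and 2 GC boxes. These are matches of letters, and the counts per gene do not tell which Bdnf start was used.

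Ngfr (ENSMUSG00000000120) lies on chromosome 11 at 95459644 to 95478561 on the minus strand of GRCm39, the build used for all gene positions below. It had 263, 377 and 204 counts in the phillyrin libraries, against 618, 673 and 637 counts in the OGD/R libraries. As CPM (the count scaled to the library's size), these were 15.4, 17.2 and 14.2 in phillyrin libraries and 33.4, 32.5 and 33.5 in OGD/R libraries. Every phillyrin library lay below every OGD/R library, and the spread within each group was small beside the gap between them. Ngfr averaged 15.6 ± 1.53 CPM in phillyrin libraries and 33.1 ± 0.580 CPM in OGD/R libraries (SD, n = 3 each).

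The fitted log2 fold change of Ngfr, phillyrin minus OGD/R, was -1.07 (SE 0.08), a level 0.475 times that of the OGD/R libraries. The summed counts gave a ratio of 0.478, with an exact 95% interval of 0.440 to 0.518 that covers counting error only. Ranked from the lowest, this was the 84th log2 fold change of the 11658 genes. In bulk RNA, fewer cells with a transcript and less of it per cell cannot be told apart. Ngfr was present at a middling level: its mean FPKM, a length-scaled value, over all 6 libraries stood above 62.2% of the genes with counts.

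**Figure D1:**
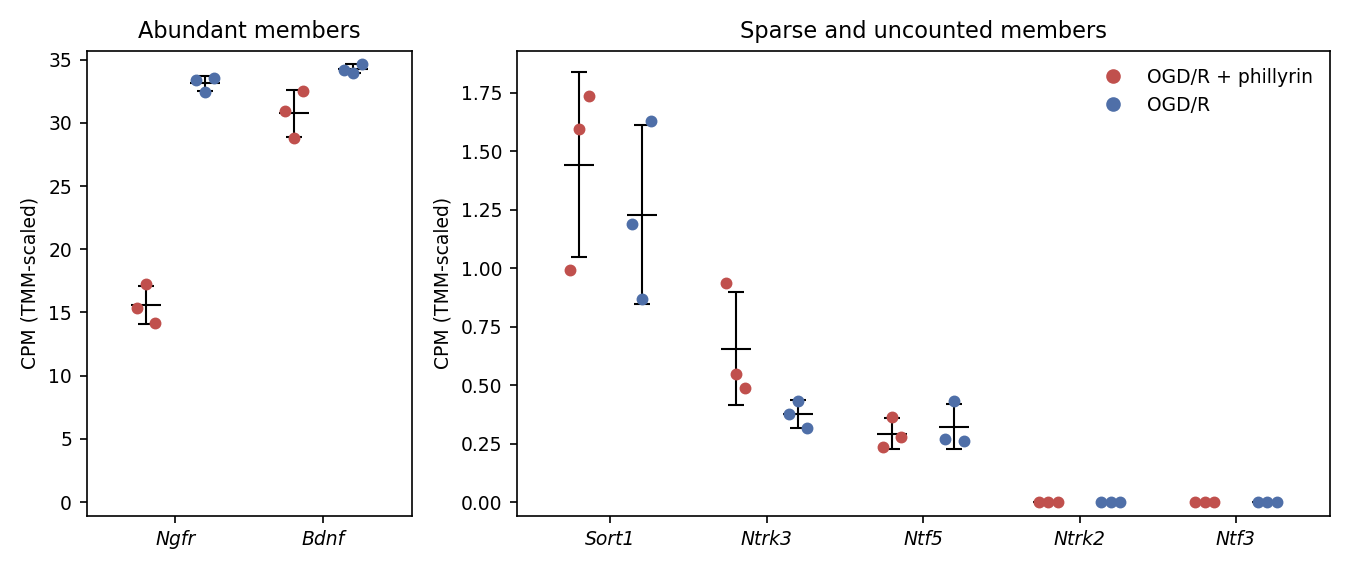
CPM of the 7 members in each library; points are libraries, the dash and bars are the mean and SD of 3 libraries, and the 2 panels have separate scales. Ngfr lies between 14.2 and 17.2 CPM in the phillyrin libraries and between 32.5 and 33.5 CPM in the OGD/R libraries, while Ntrk2 and Ntf3 are at 0 in both groups.

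Ntrk2 and Ntrk3 were nearly or wholly uncounted. Ntrk2 (ENSMUSG00000055254, chromosome 13, 58954383 to 59281784, plus strand), the gene of TrkB, was not counted in any library (0 counts, an upper limit of 0.0269 CPM over all 6). Ntrk3 (ENSMUSG00000059146, chromosome 7, 77825707 to 78387760, minus strand), the gene of TrkC, had 16, 12 and 7 counts in phillyrin libraries and 7, 9 and 6 counts in OGD/R libraries. It reached 0.936, 0.548 and 0.487 CPM in phillyrin libraries and 0.378, 0.434 and 0.316 CPM in OGD/R libraries. The ranges of Ntrk3 did not overlap, yet they rested on 57 counts in all. The ratio of summed counts was 1.74, phillyrin over OGD/R, with an exact 95% counting interval of 0.9903 to 3.11. Ntrk3 did not pass the count filter.

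Of Ngfr, Ntrk2 and Ntrk3, only Ngfr had more than 16 counts in any library. A count of 0 does not exclude Ntrk2 transcripts below the limit given.

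Sort1 (ENSMUSG00000068747, chromosome 3, 108191398 to 108268827, plus strand) encodes sortilin, which also sorts proteins from the Golgi to endosomes. It had 17, 35 and 25 counts in phillyrin libraries and 22, 18 and 31 counts in OGD/R libraries. Its levels were 0.994, 1.60 and 1.74 CPM in phillyrin libraries and 1.19, 0.868 and 1.63 CPM in OGD/R libraries. The groups overlapped, and each group held both a low and a high library. The fitted log2 fold change was 0.24 (SE 0.33), a value smaller than its standard error. It was 0.03 without OGD/R library 2 and 0.49 without OGD/R library 3. Thus 2 of the 3 tested members, Ngfr and Bdnf, had groups that did not overlap, beside 43.1% of all tested genes, and nothing is read from that count, since the members were picked on this contrast.

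Among the relatives of sortilin that can also serve p75, Sorcs2 was the abundant transcript. It fell to 146 ± 7.89 CPM in phillyrin libraries, against 176 ± 6.55 CPM in OGD/R libraries (SD, n = 3 each), a log2 difference of -0.27 ± 0.04 (SE) at an edgeR adjusted p of 5.11e-06. Per length, Sorcs2 had 17.4, 16.4 and 15.4 FPKM in phillyrin libraries and 21.3, 19.8 and 19.97 FPKM in OGD/R libraries. Its FPKM exceeded that of Sort1 by 134, 78.4 and 68.7 times in phillyrin libraries and by 133, 170 and 91.5 times in OGD/R libraries. The ratio varied widely within both groups, with few Sort1 counts behind it. Sorcs1 had 0 counts, Sorcs3 had 5 and Sorl1 had 4 over all libraries.

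Bdnf (ENSMUSG00000048482, chromosome 2, 109505045 to 109557352, plus strand) encodes brain-derived neurotrophic factor, the ligand of TrkB. It had 529, 631 and 467 counts in phillyrin libraries and 633, 704 and 659 counts in OGD/R libraries. As CPM these were 30.9, 28.8 and 32.5 in phillyrin libraries and 34.2, 33.95 and 34.7 in OGD/R libraries. All phillyrin libraries lay below all OGD/R libraries, with a gap narrower than the range of the phillyrin libraries. The means were 30.7 ± 1.84 CPM with phillyrin and 34.3 ± 0.363 CPM in OGD/R libraries (SD, n = 3 each), and the fitted log2 fold change was -0.16 (SE 0.07), or 0.894 times the OGD/R level. It was smallest, -0.11, without phillyrin library 2.

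Ntf5 (ENSMUSG00000074121, chromosome 7, 45063119 to 45066603, plus strand) encodes neurotrophin-4, which also binds TrkB. It had 4, 8 and 4 counts in phillyrin libraries and 5, 9 and 5 counts in OGD/R libraries. The groups overlapped, with the highest count in library 2 of each. The ratio of summed counts was 0.919, with an exact 95% counting interval of 0.442 to 1.89, and Ntf5 did not pass the count filter. Ntf3 (ENSMUSG00000049107, chromosome 6, 126078375 to 126143873, minus strand), the gene of neurotrophin-3 and ligand of TrkC, had 0 counts in all 6 libraries, with the same upper limit of 0.0269 CPM.

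A list of 7 other neurotrophin ligands and receptors, Sorcs2 among them, had 3 genes tested, 2 lower and 0 higher, with a median log2 difference of -0.27. That is 66.7% called, beside 31.7% of all tested genes, but 3 genes are too few to read a share from. Nradd, which encodes a p75 homologue, had 27.4 ± 3.12 CPM in phillyrin libraries and 31.4 ± 2.496 CPM in OGD/R libraries (log2 difference -0.19 ± 0.08 SE, edgeR adjusted p = 0.0749). Nradd did pass the threshold with library size alone (adjusted p = 0.0336), without phillyrin library 2 (adjusted p = 0.0293) and without OGD/R library 2 (adjusted p = 0.0470).

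**Figure D2:**
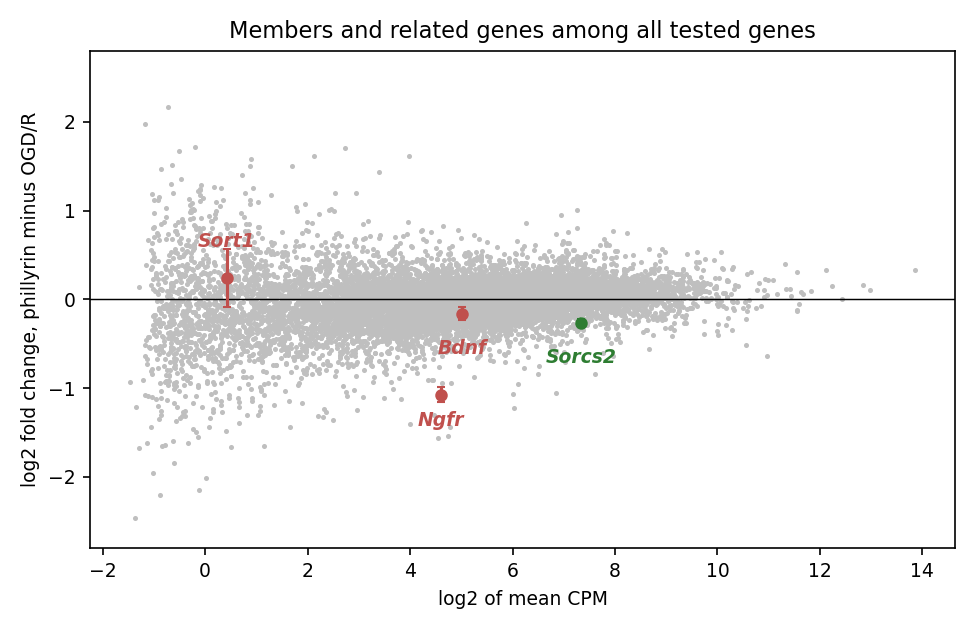
Log2 fold change (phillyrin minus OGD/R) against the log2 of the mean CPM for the 11658 tested genes in grey, with the tested members in red and Sorcs2 in green; bars are standard errors. Ngfr lies at -1.07, Bdnf at -0.16 and Sort1 at 0.24 with the widest bar of those shown.

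Levels of different genes were compared per length, as the deposited FPKM. In the phillyrin libraries Bdnf averaged 4.87 ± 0.256 FPKM and Ngfr 4.46 ± 0.468 FPKM, and their ranges overlapped. In the OGD/R libraries Ngfr stood first of the members at 9.76 ± 0.175 FPKM, followed by Bdnf at 5.60 ± 0.0548 FPKM, and these did not overlap. The order of Ngfr and Bdnf was thus within the spread of the libraries with phillyrin and beyond it in the OGD/R libraries. The ratio of Ngfr to Bdnf FPKM was 0.897, 1.08 and 0.788 in phillyrin libraries and 1.76, 1.73 and 1.74 in OGD/R libraries.

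Below them came Sort1, at 0.188 ± 0.0503 FPKM in phillyrin libraries and 0.165 ± 0.0512 FPKM in OGD/R libraries. Ntf5 followed at 0.109 ± 0.0251 FPKM in phillyrin libraries and 0.123 ± 0.0370 FPKM in OGD/R libraries. Sort1 and Ntf5 overlapped in both groups. Ntrk3, whose length of 30170 bases in the table is the greatest of the members, had 0.0215 FPKM in phillyrin libraries and 0.0127 FPKM in OGD/R libraries. Ntrk2 and Ntf3 were listed at 0.

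**Figure D3:**
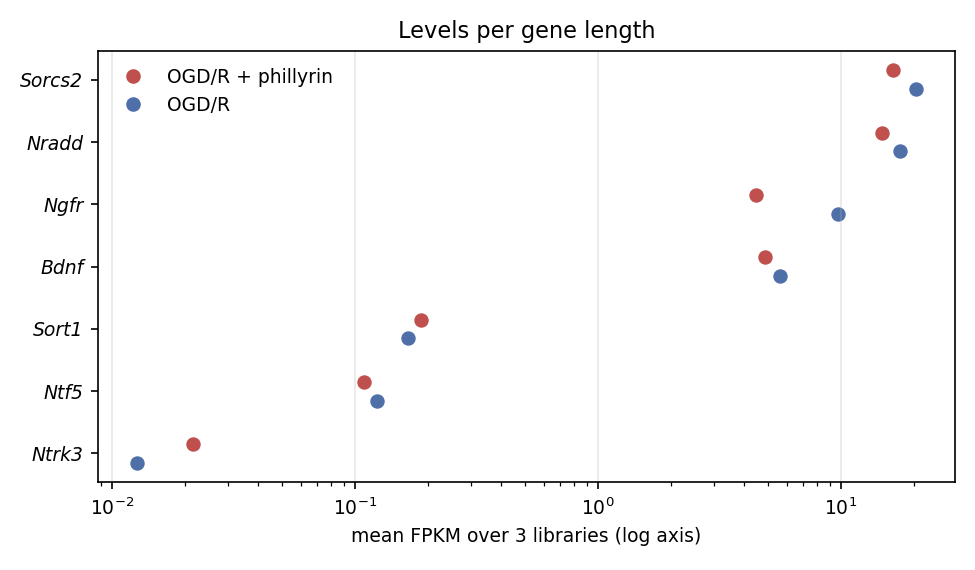
Mean FPKM over 3 libraries on a log axis for the 5 members with counts and for Sorcs2 and Nradd; each point is a group mean. Ngfr stands at 4.46 FPKM with phillyrin and 9.76 FPKM in OGD/R libraries, and Ntrk3 lies lowest in both groups.

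The genes whose log2 CPM followed Ngfr most closely over the 6 libraries were Armcx5 (Pearson r 0.999), Uhrf1 (0.998), Col1a2 (0.997), Gramd4 (0.997) and Baiap2 (0.997), out of 7787 candidates averaging 4 log2 CPM or more. Uhrf1 encodes a factor that maintains DNA methylation at replication, Col1a2 a chain of type I collagen, and Baiap2 an actin-binding adaptor. With 3 libraries a side, such a correlation mostly restates the difference between the groups, and 42 candidates had r above 0.99. The differences themselves were smaller than that of Ngfr: the log2 fold change was -0.65 for Baiap2, -0.54 for Uhrf1, -0.38 for Armcx5, -0.27 for Col1a2 and -0.26 for Gramd4.

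The genes closest to Bdnf were Amn1 (r 0.996), Snapin (0.995), Lrrfip1 (0.992), Elk3 and Kidins220 (0.9899), the last a scaffold that binds Trk receptors and p75. Those closest to Sort1 were Slf2 (0.981), Borcs7 (0.974), Anapc5 (0.973), Nxt1 (0.968) and Gnb1 (0.968). These are the highest of 7787 correlations for Bdnf and of 7788 for Sort1, each over 6 libraries. Sort1 had at most 35 counts in a library, so counting error weighs on its values. Its closest genes had log2 fold changes between 0.01 (Gnb1) and 0.06 (Nxt1). The 3 tested members shared no gene among their 5 closest, and nothing is read from that.

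**Figure D4:**
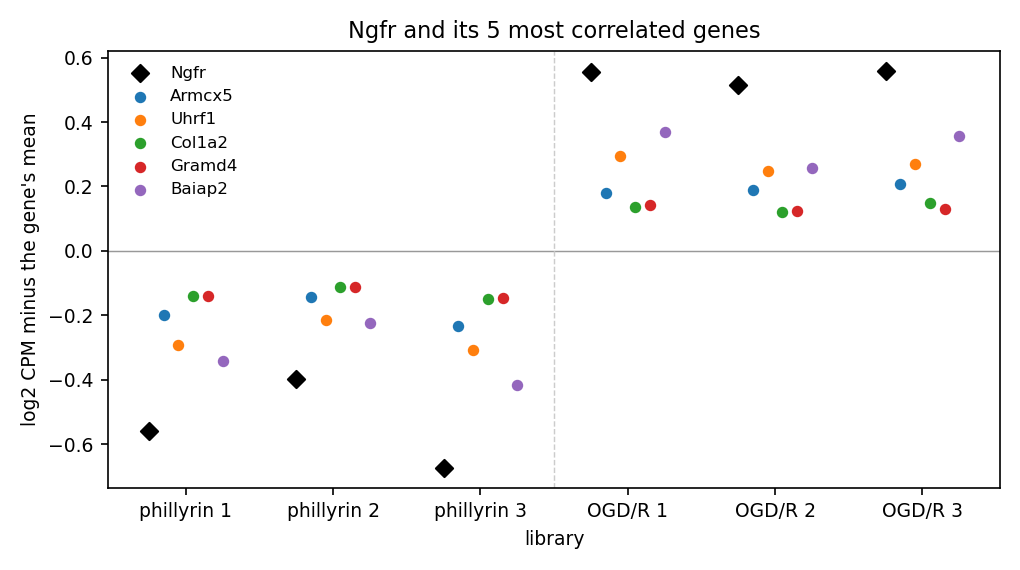
Log2 CPM minus the gene's own mean in each library for Ngfr (diamonds) and the 5 genes most correlated with it (circles). Ngfr lies at -0.56, -0.40 and -0.67 in the phillyrin libraries and between 0.51 and 0.56 in the OGD/R libraries, and the other genes keep to the same sides nearer to 0.

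The genes of proteins that carry p75 signals did not move one way. Of 23 p75 adaptors and effectors 21 were tested, 2 rose and 6 fell with phillyrin. The share called was 38.1%, beside 31.7% of all tested genes, and the median log2 difference was -0.00. Rhoa, a GTPase controlled by p75, rose to 418 ± 19.5 CPM in phillyrin libraries, against 369 ± 1.78 CPM in OGD/R libraries (SD, n = 3 each), a log2 difference of 0.18 ± 0.04 (SE) at an edgeR adjusted p of 0.000189. Its kinase Rock2 rose to 793 ± 41.5 CPM, against 697 ± 7.52 CPM in OGD/R libraries (log2 difference 0.19 ± 0.04 SE, edgeR adjusted p = 6.27e-05). Irak1, a kinase recruited to p75 with Traf6, fell to 82.9 ± 1.93 CPM, against 97.4 ± 6.09 CPM in OGD/R libraries (log2 difference -0.23 ± 0.05 SE, edgeR adjusted p = 0.000488). Smpd2, Nfkb1, Kidins220 and Maged1 were also among those that fell. Arhgdia, an inhibitor of Rhoa, had 545 CPM in both groups.

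Shedding and cleavage of p75 within the membrane are carried out by metalloproteases and gamma-secretase. Of 10 genes on this list 9 were tested, 2 rose and 0 fell, which is 22.2% called, beside 31.7% of all tested genes. The median log2 difference was -0.01. Timp3, an inhibitor of the p75 sheddase Adam17, rose to 922 ± 19.0 CPM in phillyrin libraries, against 640 ± 9.82 CPM in OGD/R libraries (SD, n = 3 each), a log2 difference of 0.53 ± 0.03 (SE) at an edgeR adjusted p of 1.62e-15. The metalloprotease gene Adam10 rose to 228 ± 4.73 CPM, against 208 ± 2.33 CPM in OGD/R libraries (log2 difference 0.13 ± 0.04 SE, edgeR adjusted p = 0.00593). Scaled by library size alone, Adam10 missed the threshold (adjusted p = 0.0561). Adam17 had 107 CPM in phillyrin libraries and 110 CPM in OGD/R libraries (edgeR adjusted p = 0.570), and the gamma-secretase gene Ncstn did not pass either.

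Conversion of proneurotrophins to mature forms was represented by 18 genes, of which 9 were tested, 1 rose and 1 fell (median log2 difference 0.08). This is 22.2% called, beside 31.7% of all tested genes. Furin, a protease that cleaves proneurotrophins in the Golgi, rose to 135 ± 1.75 CPM in phillyrin libraries, against 123 ± 1.06 CPM in OGD/R libraries (SD, n = 3 each), a log2 difference of 0.14 ± 0.04 (SE) at an edgeR adjusted p of 0.00708. With scaling by library size alone this was lost (adjusted p = 0.0547). Plaur, the urokinase receptor, fell to 165 ± 1.35 CPM, against 184 ± 4.76 CPM in OGD/R libraries (log2 difference -0.16 ± 0.04 SE, edgeR adjusted p = 0.00183). The list had 2 genes higher without phillyrin library 1. Plg, the gene of plasminogen, and Mmp7 had 0 counts in all libraries.

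Downstream of Trk receptors, 41 of 43 genes were tested, 9 rose and 7 fell, with a median log2 difference of 0.05. The share called was 39%, beside 31.7% of all tested genes. The split into higher and lower depended on the scaling: with library size alone 5 were higher and 11 lower. The exchange factor gene Sos1, which loads Ras with GTP, rose to 140 ± 4.40 CPM in phillyrin libraries, against 113 ± 4.83 CPM in OGD/R libraries (SD, n = 3 each), a log2 difference of 0.31 ± 0.04 (SE) at an edgeR adjusted p of 8.93e-07. The adaptor gene Crk rose to 435 ± 3.81 CPM, against 374 ± 0.996 CPM in OGD/R libraries (log2 difference 0.22 ± 0.03 SE, edgeR adjusted p = 2.18e-06). These genes serve many other receptors, and Ntrk2 and Ntrk3 themselves had few counts or none.

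The neurotrophin signalling pathway as annotated in the deposited table, a list taken after the table had been opened, held 114 genes besides the members. Of these 99 were tested, 16 rose and 21 fell, so that 37.4% passed beside 31.7% of all tested genes; the median log2 difference was 0.00. Calm2, a calmodulin gene, rose to 509 ± 11.8 CPM in phillyrin libraries, against 405 ± 12.7 CPM in OGD/R libraries (SD, n = 3 each), a log2 difference of 0.33 ± 0.03 (SE) at an edgeR adjusted p of 1.04e-09. Gsk3b, a kinase inhibited by Akt, rose to 240 ± 4.06 CPM, against 198 ± 2.95 CPM in OGD/R libraries (log2 difference 0.28 ± 0.04 SE, edgeR adjusted p = 2.36e-07). With library size alone, 11 were higher and 27 lower.

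The Nogo receptor complex, in which p75 is a signalling subunit, was sparse apart from Rtn4. Only 2 of its 11 genes, Rtn4 and Lingo2, were tested, with a median log2 difference of 0.18. Of these, 0 passed edgeR's adjusted threshold, 0 an unadjusted p of 0.05, and 0 the threshold with DESeq2 or limma-voom. That is 0% called, beside 31.7% of all tested genes, but 2 genes are too few to read a share from. Rtn4, the gene of Nogo, had 832 CPM in phillyrin libraries and 826 CPM in OGD/R libraries (edgeR adjusted p = 0.842). The receptor gene Rtn4r had 2 counts over all libraries.

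Relatives of p75 in the TNF receptor superfamily moved in both directions: 11 of 14 were tested, 1 rose and 2 fell. The share called was 27.3%, beside 31.7% of all tested genes, and the median log2 difference was -0.04. Eda2r, a receptor for ectodysplasin A2, rose to 109 ± 3.10 CPM in phillyrin libraries, against 92.1 ± 3.99 CPM in OGD/R libraries (SD, n = 3 each), a log2 difference of 0.24 ± 0.05 (SE) at an edgeR adjusted p of 0.000175. Tnfrsf12a, the TWEAK receptor, fell to 249 ± 14.7 CPM, against 276 ± 4.17 CPM in OGD/R libraries (log2 difference -0.15 ± 0.04 SE, edgeR adjusted p = 0.00318). Tnfrsf1b, a receptor of TNF, fell to 22.6 ± 2.99 CPM, against 27.6 ± 1.09 CPM in OGD/R libraries (log2 difference -0.28 ± 0.08 SE, edgeR adjusted p = 0.00982). Tnfrsf1b missed the threshold without phillyrin library 3 (adjusted p = 0.0986), where 1 gene of the list was left lower, and without OGD/R library 3 (adjusted p = 0.0559).

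Of 22 genes of sortilin adaptors, retromer and ligands 19 were tested, 6 rose and 1 fell (median log2 difference 0.06). The share called was 36.8%, beside 31.7% of all tested genes. Lpl, lipoprotein lipase and a sortilin ligand, rose to 50.0 ± 2.59 CPM in phillyrin libraries, against 31.0 ± 1.26 CPM in OGD/R libraries (SD, n = 3 each), a log2 difference of 0.68 ± 0.07 (SE) at an edgeR adjusted p of 1.72e-10. Psap, the gene of prosaposin, rose to 845 ± 22.6 CPM, against 751 ± 10.4 CPM in OGD/R libraries (log2 difference 0.17 ± 0.03 SE, edgeR adjusted p = 9.37e-05). Grn, the gene of progranulin, rose to 121 ± 5.72 CPM, against 104 ± 3.72 CPM in OGD/R libraries (log2 difference 0.22 ± 0.05 SE, edgeR adjusted p = 0.000342). The gene that fell was Ap1s1, a subunit of the AP-1 clathrin adaptor, and Sort1 itself had overlapping groups.

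Among 20 transcription factors described at Bdnf promoters, all tested, 1 rose and 2 fell, which is 15% called, beside 31.7% of all tested genes. The median log2 difference was -0.01. Bhlhe40, a repressor, rose to 102 ± 3.85 CPM in phillyrin libraries, against 83.8 ± 2.26 CPM in OGD/R libraries (SD, n = 3 each), a log2 difference of 0.28 ± 0.05 (SE) at an edgeR adjusted p of 1.54e-05. Mef2d, a factor of the MEF2 family, fell to 101 ± 2.09 CPM, against 116 ± 3.01 CPM in OGD/R libraries (log2 difference -0.20 ± 0.04 SE, edgeR adjusted p = 0.000666). Carf, a calcium-response factor, fell to 12.6 ± 0.855 CPM, against 15.3 ± 0.770 CPM in OGD/R libraries (log2 difference -0.28 ± 0.10 SE, edgeR adjusted p = 0.0325). The call of Carf was lost without any of 5 libraries: its adjusted p was 0.112 and 0.0853 without phillyrin library 2 and 3, and 0.0539, 0.144 and 0.0523 without OGD/R library 1, 2 and 3, each of which left 1 gene lower. DESeq2 gave Carf an adjusted p of 0.0709. The count of higher factors was 2 with DESeq2 size factors in edgeR and without phillyrin library 1, 2 or 3 or OGD/R library 2.

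**Figure D5:**
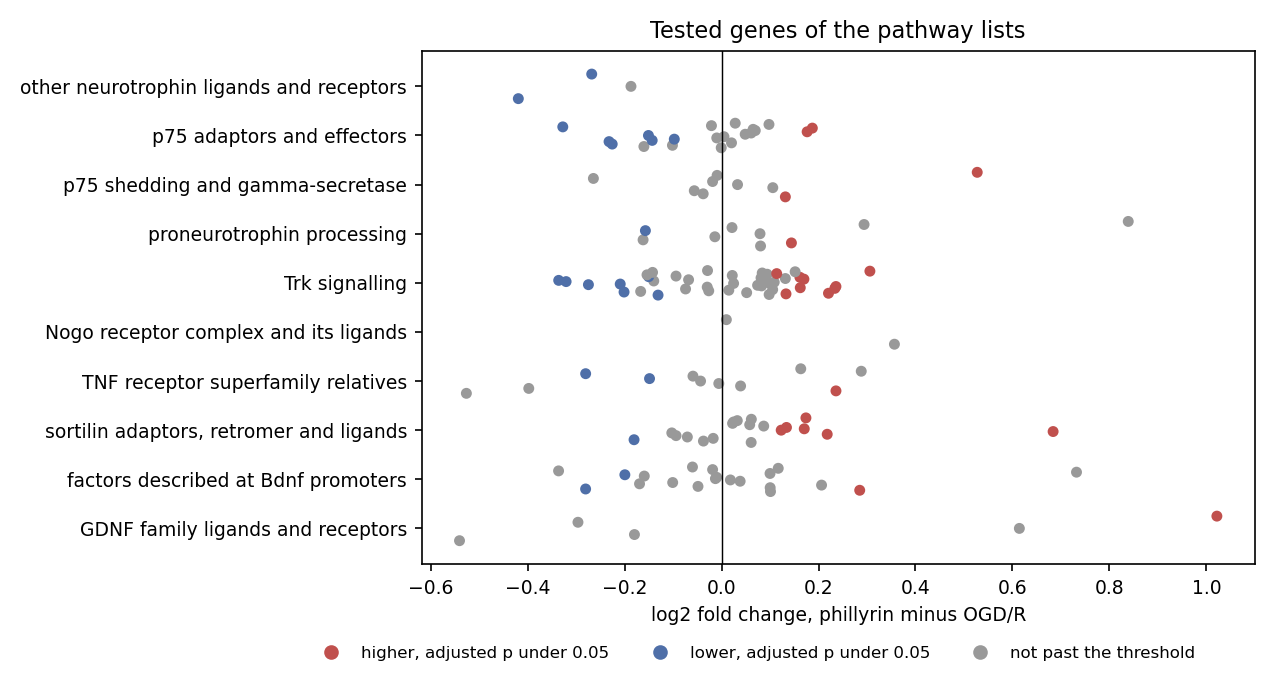
Log2 fold change (phillyrin minus OGD/R) of each tested gene on the 10 pathway lists; colours mark genes past an edgeR adjusted p of 0.05, and heights within a list only separate the points. Called genes lie on both sides of 0 in 6 of the 10 lists, and Timp3, Lpl and Ret are the called genes farthest to the right.

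Over the 10 lists, with each gene counted once, 140 of 177 genes were tested, 23 rose and 21 fell. The share that passed was 31.4%, beside 31.7% of all tested genes, and the median log2 fold change was 0.02. With library size alone the split became 14 higher and 27 lower, while over all genes it became 1313 higher and 2455 lower, against 1871 and 1823.

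Ngfr is also known from Schwann cells, other glia and some mesenchymal and muscle precursor cells, so marker lists of these cells were summed in each library. The 9 Schwann and glial markers summed to 15.02 to 20.8 CPM in phillyrin libraries and 19.5 to 20.7 CPM in OGD/R libraries. Among the 4 tested, 0 rose and 1 fell (Erbb3). The defining genes Sox10, Cdh19 and Foxd3 had 0 counts. The 8 fibroblast markers summed to 1796 to 1949 CPM in phillyrin libraries and 2280 to 2321 CPM in OGD/R libraries. Among the 5 tested, 0 were higher and 3 lower (Col1a2, Col3a1 and Pdgfra), while Lum and Tcf21 had 0 counts. The 9 skeletal myoblast markers, none at 0, summed to 1187 to 1247 CPM in phillyrin libraries and 1254 to 1276 CPM in OGD/R libraries. Among the 7 tested, 1 was higher (Myod1) and 4 lower (Myf5, Cdh15, Chrna1 and Mymk). Over all tested genes 31.7% were called, 15.6% as lower, and lists this short are too small to read a share from. The fibroblast and myoblast sums were lower in every phillyrin library, as Ngfr was, and their part in the values of Ngfr was not tested. Single genes held most of these sums. Col3a1 averaged 1099 CPM in phillyrin libraries and 1394 CPM in OGD/R libraries. Des, on the myoblast list, averaged 694 CPM in phillyrin libraries and 675 CPM in OGD/R libraries.

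The 12 neuronal markers, 2 at 0, also summed lower, to 720 to 789 CPM in phillyrin libraries and 799 to 819 CPM in OGD/R libraries. Yet the 6 tested did not fall together: 3 were higher (Map2, Stmn2 and Tubb3) and 2 lower (Nefl and Nefm), beside 31.7% of all tested genes called. The remaining lists were sparse or went the other way. The 12 atrial cardiomyocyte markers, 4 of them at 0, summed to 180 to 196 CPM in phillyrin libraries and 151 to 152 CPM in OGD/R libraries. Among the 4 tested, 1 was higher (Tnnt2) and 0 lower. Most of that sum was Tnnt2, with a mean of 153 CPM in phillyrin libraries and 116 CPM in OGD/R libraries. Gata4 had 28.3 CPM in phillyrin libraries and 30.7 CPM in OGD/R libraries. The 6 endothelial markers, 3 at 0, summed to at most 1.35 CPM in phillyrin libraries and 1.11 CPM in OGD/R libraries. The 6 leukocyte markers, 2 at 0, summed to at most 4.24 CPM in phillyrin libraries and 3.19 CPM in OGD/R libraries.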

How the data were processed

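Poly(A) RNA-seq libraries of mouse cells (3 with phillyrin, 3 without) were deposited as 1 table. Per the file headers it holds read counts and FPKM per gene and library. The FPKM deposited by the authors equalled count over length and library total to within a relative difference of 2.43e-07. The submitters' processing notes name build GRCm39, featureCounts 2.0.3, DESeq2 1.34.0, HISAT2 2.2.1 and Trimmomatic 0.39; the settings for strand and multiple alignments are not given there, in the labels or in the table. No member overlapped another gene of the table. Columns were matched to samples by title, since the description repeats a single column name across the phillyrin libraries.

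The deposited counts were filtered (filterByExpr), scaled by TMM and put to the quasi-likelihood test of edgeR (edgeR 4.0.16, limma 3.58.1, R 4.3.3), two-sided, with Benjamini-Hochberg adjustment over 11658 genes and a threshold of 0.05. The script was tested on simulated data. CPM used TMM-scaled library sizes, and log2 CPM a prior count of 2. No replicate libraries were identical. A count of 0 was given an upper limit of 3 counts, 0.137 to 0.209 CPM in a library; limits and intervals cover counting error only, since PCR reads are not independent molecules.

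The members and gene lists were chosen with earlier results of these data known. Named were all members, up to 3 called genes per list with the smallest p and a mean log2 CPM of 1 or more, and the 5 genes most correlated with each tested member; genes of a short count outside this rule were named after their values were seen. Some genes that the rule takes are not reported here. Alternatives were limma-voom, DESeq2 1.42.0, its size factors in edgeR, library size only, no count filter, a 1 CPM mean filter, a replicate block, and leaving out each library. Promoters came from a RefSeq table of GRCm38.p6. Protein sequences were not analysed here.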

Additional observations from a re-analysis of the deposited data

How the results depend on the processing

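Of 101 main values recomputed under the alternatives, 99 stayed within the limits set for a change, as did 605 of 662 values of single lists and named genes. These limits were wide. With library size only, 1313 genes higher against 1871 and 2455 lower against 1823 still lay within them. A member's fold change could move by its own SD within groups. Reversal was labelled for named genes alone, and 0 reversed. The fold changes of Ngfr, Bdnf and Sort1 kept their sign in all 13 alternatives. The log2 fold change of Ngfr ranged from -1.16 to -1.01 over 13 alternatives, that of Bdnf from -0.21 to -0.11 and that of Sort1 from 0.03 to 0.49. With library size only, 14 genes of the 10 pathway lists were higher, against 23, and the median of all genes was -0.06; counts per kilobase over the TMM-scaled library size gave Bdnf 5.51 in OGD/R libraries, against 5.60 FPKM. In both cases the values compared differ only in whether the TMM factors were used. These factors were 0.974 to 0.991 in phillyrin libraries and 1.01 to 1.02 in OGD/R libraries. Why the factors differ between the groups was not tested. Same-numbered libraries did not deviate together (correlations 0.00278, 0.00561 and 0.00322, though each library correlated best with its own number), and nothing in the labels pairs them; a fit with a replicate block called 1867 genes higher and 1841 lower, and 21 and 21 pathway genes. Depth limits Ntrk3 (57 counts) and Ntf5 (35 counts): only large differences could be seen. The values rest on 3 libraries a group, on gene-level counts without isoforms, and on a single cell line.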

Other observations

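Growth factors of the GDNF family, which act on sympathetic and sensory neurons through the receptor Ret, were mostly sparse. Of 9 genes 5 were tested, 1 rose and 0 fell, which is 20% called, beside 31.7% of all tested genes. The median log2 difference was -0.18. Ret, named after its values were seen, rose to 1.14 ± 0.155 CPM in phillyrin libraries, against 0.562 ± 0.160 CPM in OGD/R libraries (SD, n = 3 each), a log2 difference of 1.02 ± 0.39 (SE) at an edgeR adjusted p of 0.0410. That call rested on 95 counts. It was lost with library size only (adjusted p = 0.0504), DESeq2 (0.0912), no filter (0.0681) and a replicate block (0.0504). It was lost too without phillyrin library 1 (0.0788) or 2 (0.141) and without OGD/R library 1 (0.177), 2 (0.0615) or 3 (0.0723). Gdnf itself had 28.7 CPM in phillyrin libraries and 32.6 CPM in OGD/R libraries (edgeR adjusted p = 0.0646), and passed as lower with library size only (adjusted p = 0.0244) and without OGD/R library 2 (adjusted p = 0.0285). Its coreceptor gene Gfra1 had 2.99 CPM in phillyrin libraries and 1.96 CPM in OGD/R libraries (edgeR adjusted p = 0.0538), and passed as higher with DESeq2 size factors in edgeR (0.0496), limma-voom (0.0420), a mean of 1 CPM or more (0.0499), a replicate block (0.0403) and without OGD/R library 3 (0.0252).

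Cytoskeletal genes best known from neurons, the cells in which neurotrophins are most studied, differed in direction. Nefl, the light neurofilament chain, fell to 231 ± 17.4 CPM in phillyrin libraries, against 321 ± 3.20 CPM in OGD/R libraries (SD, n = 3 each), a log2 difference of -0.48 ± 0.04 (SE) at an edgeR adjusted p of 1.10e-11. Nefm, the medium chain, fell to 92.0 ± 1.60 CPM, against 139 ± 5.16 CPM in OGD/R libraries (log2 difference -0.59 ± 0.04 SE, edgeR adjusted p = 3.32e-13). Stmn2, a regulator of microtubules, rose to 196 ± 10.98 CPM, against 141 ± 8.78 CPM in OGD/R libraries (log2 difference 0.47 ± 0.04 SE, edgeR adjusted p = 1.21e-10). Of the 12 neuronal markers 6 were tested, 3 rose and 2 fell, beside 31.7% of all tested genes called. These 6 genes are too few to read a share from. Elavl4 had 0 counts, and Rbfox3, Snap25 and Syt1 had at most 2 counts each over all libraries.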
